A study of Mus musculus with 6 samples.

Results

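The S100 genes encode small calcium-binding proteins, and 10 of them were followed here in mouse colonic organoids: S100a1, S100a4, S100a6, S100a8, S100a9, S100a10, S100a11, S100a13, S100a14 and S100a16. They were taken by gene name and are 10 of the 40840 genes in the deposited expression table. DSS organoids were established from 3 wt C57BL/6 mice that drank dextran sodium sulfate (DSS), which damages the lining of the colon, at 2.5% over 2 periods of 5 days each, the first begun at 10 weeks of age and the second after a 2-week interval. Those cultures were set up on day 14 after DSS. Control organoids were established from 3 wt C57BL/6 mice for which no DSS and no age were listed, so an age difference between the groups cannot be told apart from DSS. RNA of both groups was collected on day 4 of culture, each library came from another mouse, and the methods give a medium with L-WRN conditioned medium and small molecules such as A83-01, SB203580, CHIR and Y-27632. Levels are TPM, transcript abundance corrected for length and scaled to one total per library, so that genes can be compared with each other.

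S100 proteins form dimers that bind calcium through paired EF-hand loops and then dock onto target proteins such as annexins and myosin. Some act inside the cell on the cytoskeleton and membrane, while others, above all S100a8 and S100a9, are also released and act on receptors including Tlr4 and the product of Ager. S100a8 and S100a9 form calprotectin, a zinc- and manganese-binding complex that is abundant in neutrophils and is measured in stool as a marker of bowel inflammation.

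All 10 members lie on chromosome 3 of the mouse, in the order S100a1, S100a13, S100a14, S100a16, S100a4, S100a6, S100a8, S100a9, S100a11 and S100a10. RefSeq promoter windows of build GRCm38.p6, each 300 bases long with 250 bases before and 50 bases after the annotated start, were matched for 8 of the 10 members, all but S100a10 and S100a14. The files themselves were made on GRCm39, so these positions serve only to place the sequence. The first window is shown because 2 members share most of it. S100a1 (chr3:90514281-90514580, minus strand) and S100a13 point away from each other, their annotated genes overlap by 98 bases, and their windows share 204 bases, which are in capitals.
S100a1: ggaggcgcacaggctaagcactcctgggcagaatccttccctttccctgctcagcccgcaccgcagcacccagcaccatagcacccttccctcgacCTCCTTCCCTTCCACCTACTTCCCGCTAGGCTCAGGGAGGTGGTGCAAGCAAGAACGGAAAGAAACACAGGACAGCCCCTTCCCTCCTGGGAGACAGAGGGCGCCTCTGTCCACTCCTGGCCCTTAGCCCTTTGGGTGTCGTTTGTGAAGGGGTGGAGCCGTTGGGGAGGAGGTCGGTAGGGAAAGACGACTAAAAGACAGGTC

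The next windows are shown because the members of lowest level share a sequence feature. TATAAA, the core of the TATA box, was searched on both strands. It was present in the windows of 3 of the 8 members with a window, S100a4, S100a8 and S100a9. Of 32851 RefSeq windows of the same length, 13.6% held it. Capitals mark it. Relative to the annotated start it began at -31 in S100a4 (chr3:90603520-90603819, plus strand), at -30 in S100a8 (chr3:90668821-90669120, plus strand) and at the start itself in S100a9 (chr3:90695672-90695971, minus strand).
S100a4: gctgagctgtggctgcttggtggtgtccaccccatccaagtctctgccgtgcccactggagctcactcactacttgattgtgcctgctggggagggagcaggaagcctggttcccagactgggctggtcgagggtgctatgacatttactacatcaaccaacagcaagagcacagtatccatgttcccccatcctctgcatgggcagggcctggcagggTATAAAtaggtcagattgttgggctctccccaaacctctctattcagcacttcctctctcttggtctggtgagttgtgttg
S100a8: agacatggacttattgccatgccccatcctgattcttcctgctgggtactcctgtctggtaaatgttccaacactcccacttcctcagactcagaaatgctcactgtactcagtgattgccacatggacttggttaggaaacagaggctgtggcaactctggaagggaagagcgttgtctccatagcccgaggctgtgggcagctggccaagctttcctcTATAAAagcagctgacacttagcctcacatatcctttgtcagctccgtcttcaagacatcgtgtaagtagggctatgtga
S100a9: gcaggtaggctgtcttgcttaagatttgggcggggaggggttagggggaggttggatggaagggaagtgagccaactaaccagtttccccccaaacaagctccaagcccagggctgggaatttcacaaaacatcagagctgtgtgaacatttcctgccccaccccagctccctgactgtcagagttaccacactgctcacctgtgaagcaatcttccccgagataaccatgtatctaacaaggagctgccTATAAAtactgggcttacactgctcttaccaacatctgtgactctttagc

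The S100a11 window (chr3:93520246-93520545, plus strand) is shown because it holds TGANTCA at 2 places. This pattern is a loose form of the AP-1 motif, with any base at N, and it reads the same on both strands. Capitals mark the 2 places, each TGAGTCA, which began at -136 and -38 relative to the annotated start. TGANTCA was present in windows of 2 of the 8 members with a window, S100a11 and S100a16, against 7.81% of all windows. That count is over members and the share is over windows. S100a16 had the pattern, there as TGAATCA, in its window at chr3:90540896-90541195 but not in that at chr3:90537004-90537303. A match describes the letters in a window, and whether any factor bound there was not measured.
S100a11: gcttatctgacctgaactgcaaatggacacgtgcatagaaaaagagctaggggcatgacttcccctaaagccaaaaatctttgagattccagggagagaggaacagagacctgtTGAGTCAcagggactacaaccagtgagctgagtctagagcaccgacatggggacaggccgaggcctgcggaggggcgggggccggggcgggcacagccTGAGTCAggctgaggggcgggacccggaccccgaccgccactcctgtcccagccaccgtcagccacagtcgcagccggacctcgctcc

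TPM keeps no read numbers, so sequencing depth is unknown and no counting interval can be given. Between 11539 and 11607 genes reached 1 TPM in DSS libraries, against 11328 to 11470 in control libraries. DSS libraries were less alike than control libraries, with a mean correlation to their own group of 0.953 to 0.973 against 0.983 to 0.989, and DSS replicate 1 was the lowest. The label of colon epithelium was met by its markers: all 11 on the list passed the filter below. Epcam, an epithelial adhesion protein, had 1007.0, 1222.4 and 1114.7 TPM in DSS organoids, against 726.4, 780.9 and 826.3 TPM in control organoids, and rose by limma with an adjusted p of 0.0311. Cdx2, a transcription factor of intestinal identity, had 303.2, 301.9 and 327.5 TPM in DSS organoids, against 155.5, 157.2 and 142.1 TPM in control organoids. It rose with a limma adjusted p of 0.00553. Of the 11 markers these 2 were called, where 10.3% of all genes tested were called. Cdh1, encoding E-cadherin, had 244.1 to 425.7 TPM in DSS and 374.5 to 428.3 TPM in control organoids. The summed level of the 11 markers was 15179 TPM in DSS replicate 1 and 23519 to 27007 TPM in the other 5 libraries.

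The summed level of the S100 members was lower in DSS than in control organoids. The 10 members together had 7284, 7966 and 7607 TPM in DSS organoids, against 9682, 9591 and 8808 TPM in control organoids. This is 0.728% to 0.797% of each DSS library and 0.881% to 0.968% of each control library, without overlap. Because these are bulk cultures, fewer cells of a type and less RNA per cell cannot be told apart here or in any comparison that follows.

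**Figure D1:**
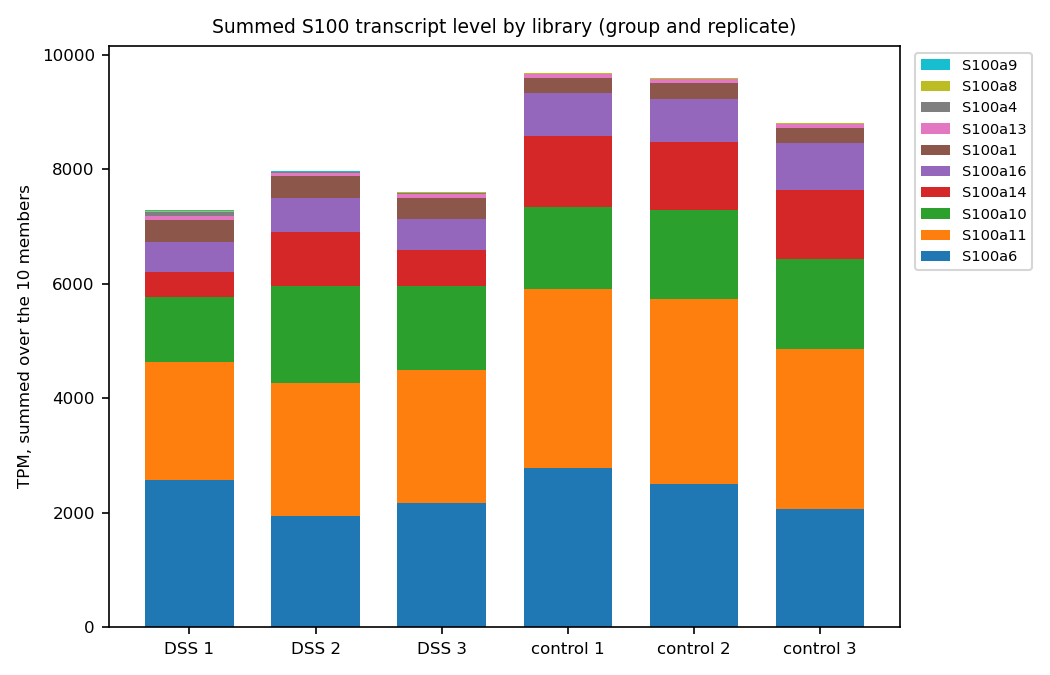
Level of the 10 S100 members in each library, stacked, in TPM, with the 3 DSS libraries on the left and the 3 control libraries on the right. S100a6, S100a11 and S100a10 make up most of every bar, and the DSS bars end at 7284 to 7966 TPM and the control bars at 8808 to 9682 TPM.

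In DSS organoids the order of mean levels was S100a6, S100a11, S100a10, S100a14, S100a16, S100a1, S100a13, S100a4, S100a8 and S100a9. The neighbours S100a6 and S100a11, S100a14 and S100a16, and S100a13 and S100a4 overlapped in that order, and the other neighbours did not. In control organoids the order was S100a11, S100a6, S100a10, S100a14, S100a16, S100a1, S100a13, S100a8, S100a4 and S100a9, in which S100a8 and S100a4 were the neighbours that overlapped. Among all 40840 genes, ranked by mean TPM, S100a11 stood at rank 78 in DSS and 52 in control organoids, S100a6 at 76 and 66, and S100a10 at 125 and 119.

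Which members differed between DSS and control organoids was asked with limma on log2(TPM + 1), with p-values adjusted over all 11643 genes with a mean of at least 1 TPM. All 10 members passed that filter. S100a9 had a control mean of 0.727 TPM and passed only through its DSS level. Past an adjusted p of 0.05, 3 of the 10 members were called, where 10.3% of all genes tested were called. S100a1 rose, where 6.45% of genes rose, and S100a11 and S100a16 fell, where 3.89% of genes fell. The groups did not overlap for 7 of the 10 members, 4 higher and 3 lower in DSS organoids, where 36.4% of genes tested did not overlap. An unadjusted p under 0.05 was common over all genes in that fit. S100a4, with an unadjusted limma p of 0.0192, stood at rank 2241 of the 11643 genes tested. S100a8, with 0.0712, stood at rank 3979. The counts at an unadjusted p under 0.05 given below are to be read beside these ranks. The median log2 fold change (DSS minus control) was -0.02 over the members and 0.05 over all genes tested. Of the calls over all genes, 62.4% were higher in DSS, a share that was 51.4% after median-ratio scaling and 48.2% after quantile normalization.

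**Figure D2:**
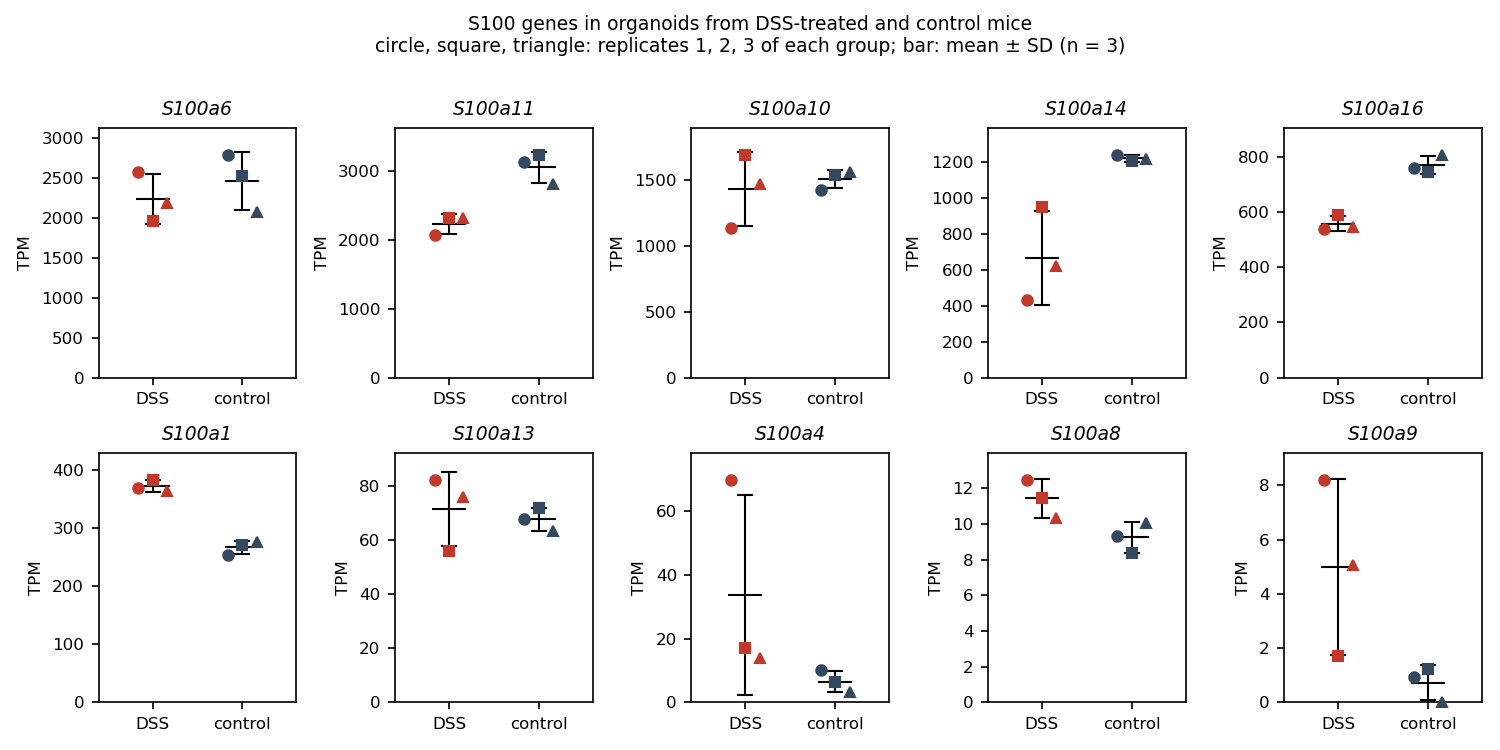
TPM of each S100 member, from the highest to the lowest mean in DSS organoids, with DSS on the left and control on the right of each panel, symbols for the replicates and bars for mean ± SD (n = 3). S100a1 is higher and S100a11, S100a16 and S100a14 lower in all 3 DSS libraries than in any control library, while S100a6, S100a10 and S100a13 overlap.

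S100a1, best known as a regulator of calcium handling in heart and skeletal muscle, had 369.2, 384.2 and 364.2 TPM in DSS organoids, against 254.0, 271.5 and 275.8 TPM in control organoids. Every DSS library lay above every control library, and the spread within each group was small. The means were 372.5 ± 10.4 TPM in DSS and 267.1 ± 11.5 TPM in control organoids (SD, n = 3 each), a 1.39-fold difference, with a log2 fold change of 0.48 ± 0.083 (SE) and an adjusted p of 0.0219 by limma. A two-sided exact permutation test on mean TPM gave p = 0.1, which is the lowest value possible with 3 libraries a group, and the same held for each member whose groups did not overlap.

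S100a13, which is needed for the release of Fgf1 from cells by a route without a signal peptide, had 82.6, 56.1 and 76.2 TPM in DSS organoids, against 67.8, 71.9 and 63.7 TPM in control organoids. DSS libraries lay on both sides of the control libraries. Its log2 fold change was 0.06, with a 95% interval of -0.31 to 0.44 and a limma adjusted p of 0.831, and it was -0.049 without DSS replicate 1. S100a1 had 4.47, 6.85 and 4.78 times the TPM of S100a13 in DSS organoids and 3.74, 3.78 and 4.33 times in control organoids. The strand of the reads was not stated to be marked, so reads from the 98 bases that both genes share may not have been told apart. Fgf1 itself, a growth factor, had 5.55, 4.12 and 5.75 TPM in DSS organoids, against 2.83, 2.73 and 2.13 TPM in control organoids, without overlap. It rose by limma, with a log2 fold change of 0.78 ± 0.178 (SE) and an adjusted p of 0.0419. That call was lost without the filter on low TPM, after quantile normalization and with the replicate number as a block. It was also lost without DSS replicate 3 or any one of control replicates 1, 2 and 3.

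S100a11, a partner of annexin A1 that is abundant in epithelia, had 2064.2, 2308.9 and 2320.0 TPM in DSS organoids, against 3125.7, 3229.2 and 2799.5 TPM in control organoids. All DSS libraries were below all control libraries. Means were 2231 ± 145 TPM in DSS and 3051 ± 224 TPM in control organoids (SD, n = 3 each), and the gene fell by 0.45 on the log2 scale with an SE of 0.096 and a limma adjusted p of 0.0351. Without the filter on low TPM the adjusted p was 0.117, after quantile normalization 0.0562 and without the mean-variance trend 0.0604.

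S100a16, a widely transcribed member, had 536.6, 588.5 and 546.9 TPM in DSS organoids, against 759.3, 742.9 and 806.9 TPM in control organoids. The groups were well apart, with the highest DSS library under the lowest control library. Means were 557.3 ± 27.5 TPM in DSS and 769.7 ± 33.3 TPM in control organoids (SD, n = 3 each). It fell by 0.47 on the log2 scale, with an SE of 0.084 and a limma adjusted p of 0.0242. The calls of S100a1, S100a11 and S100a16 held without DSS replicate 1 or 2. When DSS replicate 3 or any one of control replicates 1, 2 and 3 was left out, limma passed 0 members. Adjusted p-values were then up to 0.118 for S100a1, 0.166 for S100a11 and 0.118 for S100a16, with the same directions. In these fits 5 or 6 members had an unadjusted p under 0.05, and the share of all genes under it was not counted.

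S100a14, an epithelial member next to S100a16 on the chromosome, had 430.5, 948.0 and 621.4 TPM in DSS organoids, against 1239.9, 1204.3 and 1216.0 TPM in control organoids. The control libraries were nearly alike and the DSS libraries were spread widely below them, with DSS replicate 1 the lowest. Its log2 fold change of -0.95 ± 0.263 (SE) did not pass, with a limma adjusted p of 0.0678. The adjusted p was 0.0408 without DSS replicate 1 (log2 fold change -0.67) and 0.0109 without DSS replicate 2 (-1.24).

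S100a10, which does not need calcium and holds annexin A2 at the membrane as a tetramer, had 1136.8, 1695.4 and 1470.2 TPM in DSS organoids, against 1429.5, 1541.1 and 1562.9 TPM in control organoids. The groups overlapped. Its log2 fold change was -0.09, with a 95% interval of -0.45 to 0.27 and a limma adjusted p of 0.725, and it was 0.064 without DSS replicate 1. Anxa2, its partner, had 883.6, 1684.9 and 1485.3 TPM in DSS organoids, against 1118.3, 1333.6 and 1261.2 TPM in control organoids. In both genes DSS replicate 1 was the lowest and DSS replicate 2 the highest of all libraries, and Anxa2 had a limma adjusted p of 0.861.

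S100a6, known as calcyclin from its induction in dividing cells, had 2573.0, 1954.3 and 2179.0 TPM in DSS organoids, against 2785.3, 2514.1 and 2070.5 TPM in control organoids. The groups overlapped, and DSS replicate 1 was the highest of its group. The log2 fold change was -0.13, with a 95% interval of -0.49 to 0.22, a limma adjusted p of 0.592 and an exact permutation p of 0.5. S100a6 made up 35.3%, 24.5% and 28.6% of the summed S100 level in DSS organoids and 28.8%, 26.2% and 23.5% in control organoids.

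The 3 members whose windows hold TATAAA were the 3 of lowest level in DSS organoids. All were higher in DSS than in control organoids without passing the test. S100a10 and S100a14 had no window to search. Of the other S100 genes, S100a3, S100a7l2 and S100g also had TATAAA in a window. S100g and S100a3 had lower means in DSS organoids, with log2 fold changes of -2.23 and -0.57, and neither passed. S100a7l2 was listed at 0 in every library. Whether the motif bears on level was not tested. S100a4, which binds nonmuscle myosin and is transcribed in motile, stromal and myeloid cells, had 70.1, 17.2 and 14.0 TPM in DSS organoids, against 10.1, 6.41 and 3.23 TPM in control organoids. The groups did not overlap, and DSS replicate 1 stood far above the rest. The means of 33.7 ± 31.5 TPM in DSS and 6.57 ± 3.42 TPM in control organoids (SD, n = 3 each) differed 5.13-fold. The log2 fold change was 1.93 ± 0.633 (SE) with a limma adjusted p of 0.0998. Without DSS replicate 1 the log2 fold change was 1.23.

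S100a8, a subunit of calprotectin, had 12.5, 11.4 and 10.3 TPM in DSS organoids, against 9.34, 8.35 and 10.1 TPM in control organoids. The lowest DSS library lay just above the highest control library. Its log2 fold change was 0.28, with a 95% interval of -0.03 to 0.58 and a limma adjusted p of 0.208.

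S100a9, the other subunit of calprotectin, had 8.22, 1.73 and 5.08 TPM in DSS organoids, against 0.93 and 1.25 TPM in control replicates 1 and 2, and it was listed at 0 in control replicate 3. The groups did not overlap, and DSS replicate 2 was close to the controls. Its log2 fold change of 1.71 ± 0.506 (SE) had a limma adjusted p of 0.0796, which was 0.0218 without DSS replicate 2 (log2 fold change 2.20). S100a8 had 1.52, 6.61 and 2.03 times the TPM of S100a9 in DSS organoids, and 10.0 and 6.68 times in control replicates 1 and 2. S100a9 was near the floor in control organoids and in DSS replicate 2, so these ratios rest on low values and mostly follow S100a9.

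**Figure D3:**
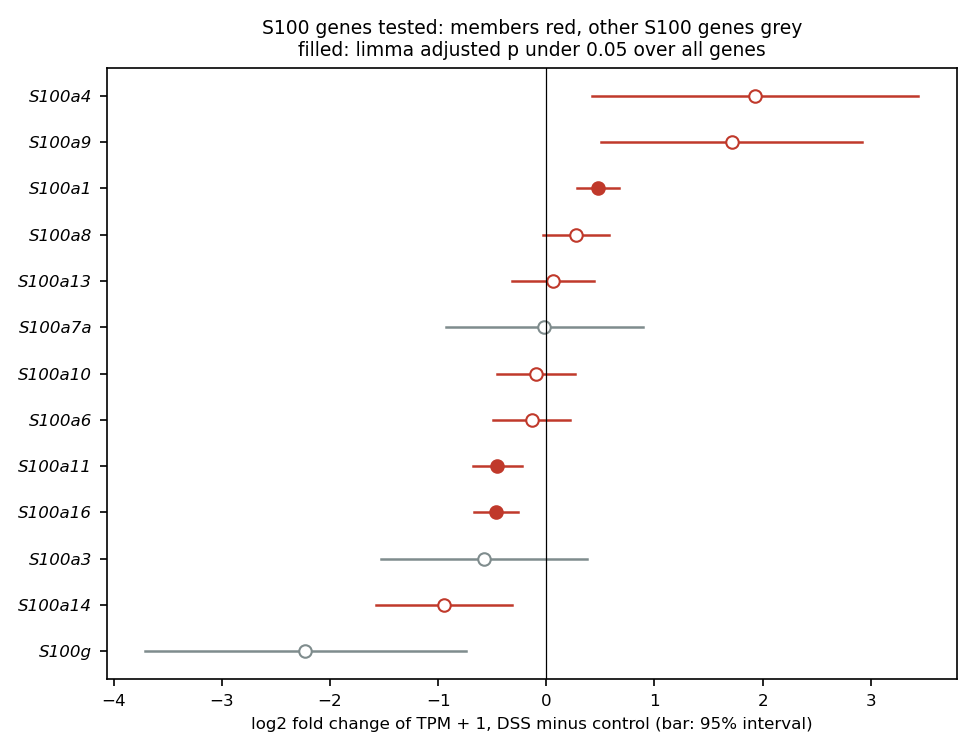
Log2 fold change (DSS minus control, log2(TPM + 1) scale) with its 95% interval for each S100 gene tested, members in red and other S100 genes in grey, filled where the limma adjusted p was under 0.05. S100a1 is filled on the higher side and S100a11 and S100a16 on the lower side, and S100a4 and S100a9 have the largest values of the members and wide intervals; S100z, listed at 0 in every DSS library, is left out.

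The table held 8 other S100 genes, of which 4 were tested. By limma 0 were called higher and 1 lower, where 6.45% of all genes tested rose and 3.89% fell. At an unadjusted p under 0.05 these counts were 0 and 2. S100g encodes calbindin-D9k, which carries calcium through intestinal cells and is induced by vitamin D. It had 19.0, 135.1 and 59.7 TPM in DSS organoids, against 260.4, 250.7 and 255.8 TPM in control organoids. As for S100a14, the control libraries were nearly alike, the DSS libraries were spread below them and DSS replicate 1 was the lowest. Its log2 fold change was -2.23 ± 0.622 (SE) with a limma adjusted p of 0.0689. The adjusted p was 0.0241 without DSS replicate 1 (log2 fold change -1.50) and 0.0140 without DSS replicate 2 (-2.88). The gene lies within Ctps2, so reads of the pair may not have been told apart.

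S100z was listed at 0 in all 3 DSS libraries, against 5.30, 6.95 and 2.95 TPM in control organoids, and was called lower by limma with an adjusted p of 0.00843. It passed the filter only through its control level, and the adjusted p was 0.0509 without control replicate 2. It overlaps a long noncoding RNA, Gm52025, for 1355 bases. S100a3 had 2.07, 0.26 and 1.16 TPM in DSS organoids and 3.43, 1.82 and 1.21 TPM in control organoids, with a limma adjusted p of 0.383. S100a7a had 1.46, 4.08 and 4.49 TPM in DSS organoids and 1.80, 4.13 and 3.97 TPM in control organoids, with a limma adjusted p of 0.980. Both overlapped between the groups. S100a5 and S100b were under the filter, with at most 2.35 and 0.25 TPM in DSS and 0.64 and 0.18 TPM in control organoids, and S100a2 and S100a7l2 were listed at 0 in every library. The fused-type genes, in which an S100 domain heads a long repeat protein of skin, were nearly silent: 4 of 7 were listed at 0 in every library and 1, Crnn, was tested without passing.

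Of 11 binding partners tested, 1 rose (Fgf1, above) and 0 fell by limma, so that 9.09% were called, against 10.3% of all genes tested. At an unadjusted p under 0.05, 2 were higher and 3 lower. The median log2 fold change was -0.14, beside 0.05 over all genes. Anxa1, the partner of S100a11, had 457.7, 968.4 and 754.9 TPM in DSS organoids, against 511.0, 756.1 and 842.0 TPM in control organoids. The groups overlapped, with a log2 fold change of 0.01 and a limma adjusted p of 0.982. Of 7 receptor genes tested, 1 rose and 0 fell by limma, so that 14.3% were called, against 10.3% of all genes tested. At an unadjusted p under 0.05, 2 were higher and 2 lower. Their median log2 fold change was 0.14.

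The receptor gene that rose was Cd36, a scavenger receptor and fatty acid transporter that binds S100a8 and S100a9. It had 4.56, 16.8 and 9.69 TPM in DSS organoids, against 0.20, 0.09 and 0.20 TPM in control organoids. The groups were far apart, with a log2 fold change of 3.13 ± 0.402 (SE) and a limma adjusted p of 0.0114. With a control mean of 0.163 TPM it passed the filter only through its DSS level, and no receptor gene was called without DSS replicate 3 or any one of control replicates 1, 2 and 3. Tlr4, the receptor for released S100a8 and S100a9, had 5.95, 5.15 and 7.88 TPM in DSS organoids and 5.33, 5.38 and 5.99 TPM in control organoids, with a limma adjusted p of 0.623. Ager, which encodes the receptor RAGE, was under the filter, with 0.26, 0.20 and 1.06 TPM in DSS organoids and 0.33 and 0.10 TPM in control replicates 1 and 2, and was listed at 0 in control replicate 3. Of 4 tested genes that withhold or store metals, as calprotectin does, 0 were called by limma and 0 had an unadjusted p under 0.05. Their median log2 fold change was 0.67. Slc11a1, on that list but under the filter, had 1.32, 2.24 and 1.35 TPM in DSS organoids, against 0.12, 0.05 and 0.03 TPM in control organoids. Ltf, also under it, overlapped between the groups. Without the filter 1 gene of the list was called higher, and without DSS replicate 1 it was 2.

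S100a4, S100a8 and S100a9 also mark myeloid and stromal cells, so the markers of these cells in the same libraries belong beside them. Of 11 neutrophil markers, 9 were listed at 0 in all control libraries and these 9 had at most 1.69 TPM in any DSS library. Csf3r, the receptor of the granulocyte growth factor, had 0.05 and 0.29 TPM in DSS replicates 1 and 2, and Ngp, a granule protein, 1.67 TPM in DSS replicate 1. Both were listed at 0 elsewhere, and Cxcr2, Camp and Stfa2l1 were listed at 0 in all 6 libraries. The summed neutrophil markers ranged over 785 to 3031 TPM in DSS and 1483 to 2747 TPM in control organoids. Most of that was Ly6g, with 437.2, 2906.1 and 1356.8 TPM in DSS organoids and 1460.0, 2484.0 and 2736.9 TPM in control organoids, which overlapped.

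Of the 2 neutrophil markers tested, 1 rose, where 6.45% of all genes tested rose. This was Cd177, a surface protein of neutrophils, with 345.3, 122.6 and 145.0 TPM in DSS organoids, against 22.8, 15.4 and 10.1 TPM in control organoids, a 12.7-fold difference of the means with a limma adjusted p of 0.0112. It was not called without DSS replicate 3 or control replicate 2. Cd177 was highest in DSS replicate 1. The markers Csf3r and Cxcr2 were at or near 0 in that library. Ngp, Mpo and Elane had 1.67, 0.37 and 0.29 TPM there and were listed at 0 in every other library. Csf3r and Mmp8 were highest in DSS replicate 2 and Retnlg in DSS replicate 3. The part of neutrophils in these levels was not tested.

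Of 10 macrophage markers tested, 6 rose and 0 fell by limma (8 and 1 at an unadjusted p under 0.05), where 10.3% of all genes tested were called. Of the 6, 5 had a control mean under 1 TPM and passed the filter only through their DSS level, so that they could be called in 1 direction only. The summed level of the 16 markers on the list was 296 to 413 TPM in DSS organoids, against 81.7 to 104 TPM in control organoids. Lyz2, the lysozyme of macrophages, had 145.3, 226.8 and 122.6 TPM in DSS organoids, against 5.19, 2.04 and 1.09 TPM in control organoids, a log2 fold change of 5.56 ± 0.417 (SE) with a limma adjusted p of 0.00358. Tyrobp, an adaptor of myeloid receptors, had 5.24, 14.6 and 11.2 TPM in DSS organoids and was listed at 0 in all control libraries. Both, like Fcer1g, were highest in DSS replicate 2. Cd74, the invariant chain of antigen presentation, had 57.2, 11.5 and 22.0 TPM in DSS organoids, against 0.49, 0.79 and 1.02 TPM in control organoids. The order over the DSS libraries differed among the macrophage markers, with Cd74, C1qa and Lcp1 highest of that group in DSS replicate 1. Mrc1, the mannose receptor of macrophages, was named after its values were seen, since it went the other way, with 0.16, 1.27 and 1.22 TPM in DSS organoids, against 3.13, 2.62 and 3.45 TPM in control organoids and a limma adjusted p of 0.0548. The number of macrophage markers called was 3 without DSS replicate 3, control replicate 1 or control replicate 2, 4 without control replicate 3, and 9, of which 8 rose and 1 fell, without DSS replicate 1. After median-ratio scaling or quantile normalization 6 rose and 1 fell. Without the filter on low TPM 16 were tested, of which 10 rose and 0 fell. Ptprc, Adgre1, Csf1r, C1qa, C1qb and C1qc, under the filter, were also named after their values were seen. Each was higher in every DSS library than in any control library, where 36.4% of genes tested did not overlap. Csf1r had 1.08, 2.79 and 1.34 TPM in DSS organoids, against 0.03, 0.09 and 0.07 TPM in control organoids.

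Of 11 fibroblast markers 2 were tested, and of these Vim alone was called higher, where 6.45% of all genes tested rose. Vim encodes an intermediate filament protein shared with myeloid cells. It had 5.92, 15.9 and 10.2 TPM in DSS organoids, against 0.67, 1.51 and 0.39 TPM in control organoids, and its control mean of 0.857 TPM was under the filter. Without DSS replicate 3 or any one of control replicates 1, 2 and 3 it was not called. The defining collagens were absent or nearly so, with Col1a1 at most 0.02 TPM in either group and Col3a1 listed at 0 in every library. The part of macrophage markers in the levels of S100a4, S100a8 and S100a9 was not tested. None of the lymphocyte, smooth muscle, endothelial or glia markers reached the filter. Of 2 squamous markers tested, Krt15, a basal keratin, was called lower, where 3.89% of all genes tested fell. Krt15 had at most 0.33 TPM in DSS and at least 1.92 TPM in control organoids. It passed the filter only through its control level and was not called without DSS replicate 3 or any one of control replicates 1, 2 and 3.

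**Figure D4:**
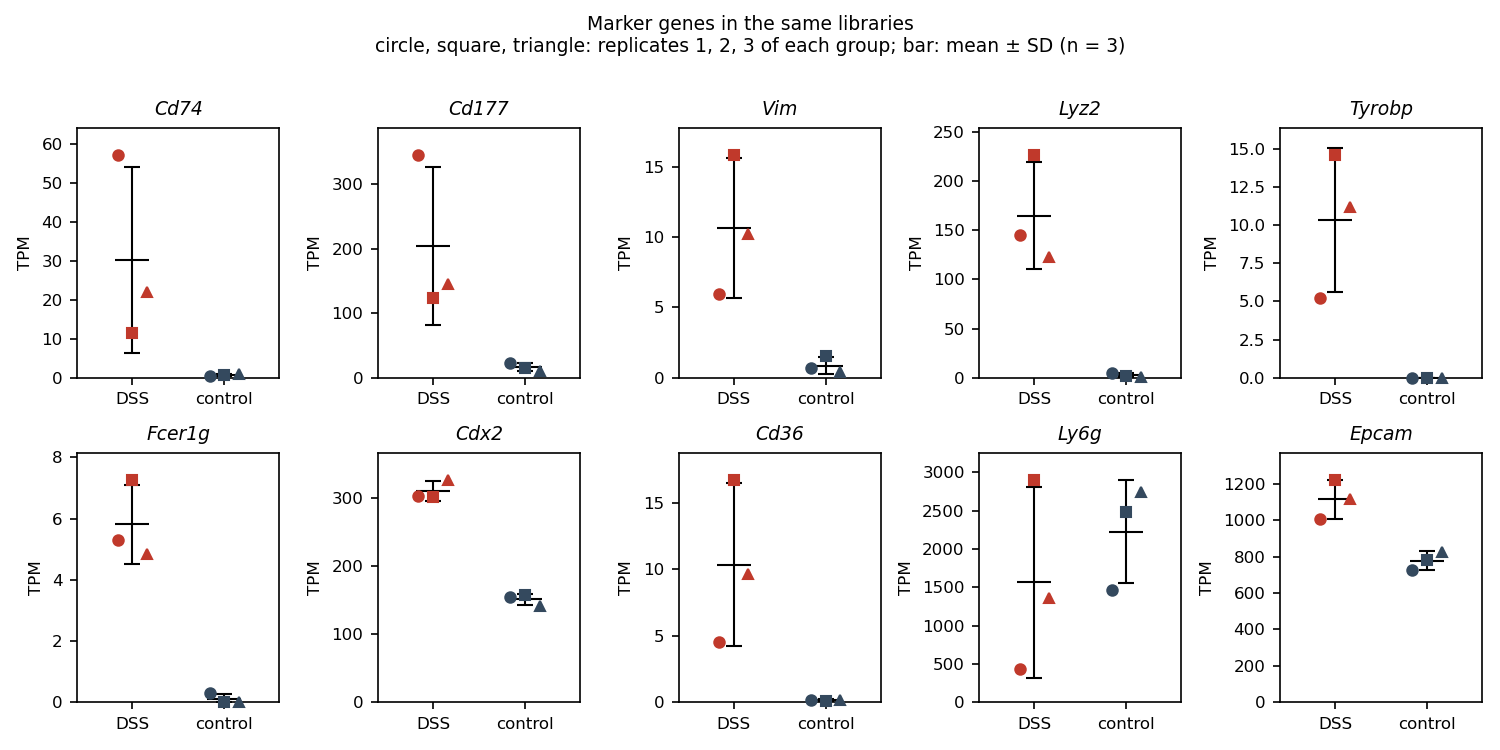
TPM of marker genes in the same libraries, with DSS on the left and control on the right of each panel, symbols for the replicates and bars for mean ± SD (n = 3). Cd74 and Cd177 are highest in DSS replicate 1, and Lyz2, Tyrobp, Fcer1g, Vim and Cd36 in DSS replicate 2, while Ly6g overlaps between the groups.

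Genes around the members were called at about the share of all genes. Of 103 neighbours in the table, whose starts lie within 1 Mb of a member's start in the RefSeq table, 28 were tested. Of these, 0 rose and 2 fell by limma, 7.14% against 10.3% of all genes tested. At an unadjusted p under 0.05, which was common over all genes as described above, 1 was higher and 6 lower. The median log2 fold change was 0.05. Adar, an RNA-editing enzyme, had 11.7, 14.4 and 16.5 TPM in DSS organoids, against 21.2, 26.5 and 35.6 TPM in control organoids, a log2 fold change of -0.90 ± 0.212 (SE) with a limma adjusted p of 0.0446. 4933434E20Rik had 30.3, 43.0 and 38.1 TPM in DSS organoids, against 63.7, 54.0 and 54.9 TPM in control organoids, with a log2 fold change of -0.63 and a limma adjusted p of 0.0478. Both were lower in every DSS library than in any control library. No neighbour was called without DSS replicate 3, control replicate 1 or control replicate 2, and 1 was called without control replicate 3.

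The alternatives tried for the 10 members are plotted by gene. S100a1, S100a11 and S100a16 stayed within narrow ranges, from 0.42 to 0.51 for S100a1, -0.51 to -0.40 for S100a11 and -0.53 to -0.40 for S100a16 on the log2 scale. S100a4 ranged from 0.87 to 2.36 and S100a9 from 0.97 to 3.05.

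**Figure D5:**
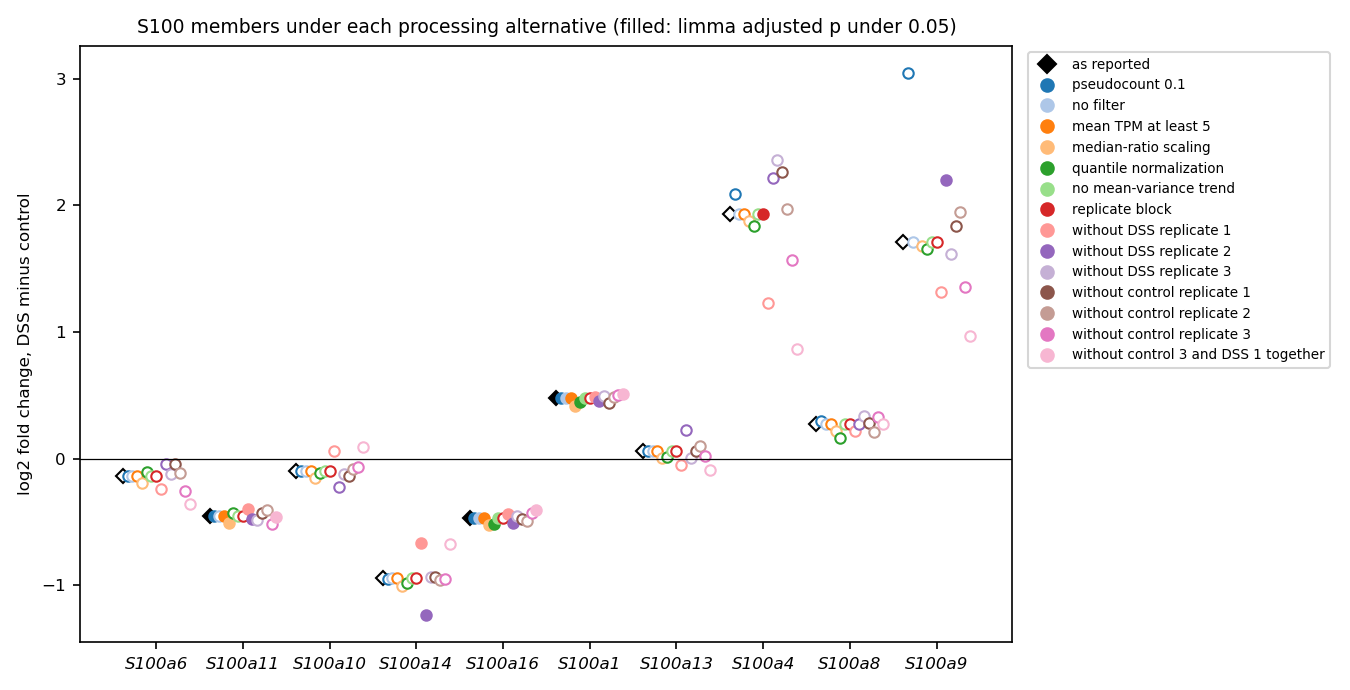
Log2 fold change (DSS minus control) of each S100 member as reported (diamond) and under the processing alternatives (circles, 14 for each member but S100a9, which has 13), filled where the limma adjusted p was under 0.05. The values of S100a1, S100a11 and S100a16 lie close together, those of S100a4 and S100a9 are spread over more than 1 unit, and those of S100a10 and S100a13 fall on both sides of 0.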

How the data were processed

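RNA-seq was made from 3 DSS and 3 control libraries of mouse colonic organoids, 1 mouse each (NEBNext Ultra II RNA kit). The authors deposited TPM values per gene. Tools in the submitters' processing notes are cutadapt 3.5, Trim Galore 0.6.7, STAR 2.7.7a and 2.7.10a and RSEM 1.3.1, on build GRCm39. TPM keeps no sequencing depth. RSEM shares reads between overlapping or similar genes by estimation.

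R 4.3.3 was used on log2(TPM + 1) of the 11643 genes with a mean of at least 1 TPM. Groups were compared with limma 3.58.1 (empirical Bayes with a mean-variance trend, two-sided), with Benjamini-Hochberg adjustment over all genes tested and a threshold of 0.05. The fit was tested on simulated data. On this scale fold changes of low genes are understated. Single means were compared by an exact permutation test with 20 arrangements. Alternatives were a pseudocount of 0.1, no filter, a minimum of 5 TPM, median-ratio scaling, quantile normalization, no trend, a replicate block and the omission of libraries.

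The members and the gene lists were chosen with earlier results of these data known. The text names every S100 gene, up to 4 called genes per list by smallest p, and preset partners, receptors and defining markers. For S100a8 and S100a9 it also names the 5 tested genes of highest Pearson correlation. Some other listed genes, such as Mpo, Elane and Slc11a1, were named after their values were seen. Promoter sequences are from RefSeq (GRCm38.p6), by gene symbol.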

Additional observations from a re-analysis of the deposited data

How the results depend on the processing

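The count of genes past the threshold was 1204, and it was 759 without the filter on low TPM, 44 to 2515 when 1 library was left out and 1538 if control replicate 3 and DSS replicate 1 were both left out. Left out singly, control replicates 1, 2 and 3 gave counts of 140, 44 and 148, and DSS replicates 1, 2 and 3 gave 2515, 1888 and 103. Of the S100 members, 3 passed, and 0 to 5 passed when 1 library was left out. The cause of these shifts was not tested.

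Same-numbered libraries of the groups were not said to share anything, and their deviations from the group means had correlations of 0.200, 0.031 and 0.035. Such correlations cannot exclude a pairing, so whether the numbers pair the mice is not known. With the replicate number as a block, 531 genes and 1 member passed, and the member was S100a4, with a limma adjusted p of 0.0329, while S100a1, S100a11 and S100a16 had 0.0629, 0.0832 and 0.0697.

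The log2 fold change of S100a10 ranged from -0.22 without DSS replicate 2 to 0.064 without DSS replicate 1, and was 0.089 if control replicate 3 and DSS replicate 1 were both omitted. For S100a13 the log2 fold change ranged from -0.049 without DSS replicate 1 to 0.23 without DSS replicate 2, and was -0.093 with control replicate 3 and DSS replicate 1 both omitted. S100a7a, at -0.02, ranged from -0.30 without control replicate 1 to 0.35 without DSS replicate 1 on the log2 scale, was 0.13 if control replicate 2 was omitted, 0.11 if control replicate 3 was omitted and 0.48 with control replicate 3 and DSS replicate 1 both omitted, and its mean TPM was 0.0433 higher in DSS organoids. No other S100 gene tested changed direction under any alternative.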

Other observations

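Over the 6 libraries, the tested genes whose log2(TPM + 1) followed S100a9 most closely were Lacc1, an enzyme known from macrophages and linked to inflammatory bowel disease (Pearson r = 0.998), 2810408I11Rik, Rnaseh2b, Rnd2 and Nipal2 (0.993). For S100a8 they were Sinhcaf (0.982), Zfp708, Ice2, Wipi1 and Thap2 (0.973). These values describe 6 points that share the split into DSS and control libraries, and they were picked as the highest of 11643 genes.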
